A study of Mus musculus with 20 samples.

Results

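The genes described are the solute carriers of 7 families that hold most of the amino acid transporters of mammalian cells, SLC1, SLC3, SLC6, SLC7, SLC36, SLC38 and SLC43, measured by RNA-Seq in mouse kidneys. They were picked by symbol alone, as every row of the count tables whose symbol starts with SLC1A, SLC3A, SLC6A, SLC7A, SLC36A, SLC38A or SLC43A. This gave 52 of the 15780 genes listed, all protein coding, and 44 of these were tested, among 13990 genes that had 10 counts or more in 5 or more of the 20 libraries. The other 8 (Slc36a2, Slc6a7, Slc1a7, Slc7a15, Slc6a3, Slc7a11, Slc7a3 and Slc6a5) were too low to test. GENCODE vM21 annotates 64 protein-coding genes of these families in the mouse, so 12 of them were not in the tables and are not analysed here.

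All mice were female NCr nude mice, an athymic strain without mature T cells, 7 weeks old when obtained, with 5 mice in each of 4 groups. EIC mice had 6 tail vein injections of engineered immune complexes, each made of 0.2 mg galactose-deficient human IgA1 and 0.1 mg of a recombinant human IgG autoantibody against it, as a model of IgA nephropathy, and were gavaged with vehicle for 11 days. EIC + S60 and EIC + S120 mice had the same injections and were gavaged with sparsentan, which blocks both the type A endothelin receptor and the AT1 angiotensin receptor, at 60 or 120 mg/kg. Control mice had PBS in place of EIC and the vehicle gavage, and all kidneys were taken on day 12. Whole kidney poly(A) RNA was sequenced with 1 library per mouse, so the immune complexes are human proteins in a mouse host, and fewer cells of a type and less RNA per cell cannot be told apart.

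The proximal tubule takes back nearly all amino acids that the glomerulus filters. Sodium-coupled carriers and the cystine and dibasic amino acid exchanger, a pair of a heavy chain (Slc3a1) and a light chain (Slc7a9), bring them in across the brush border, and exchangers built on another heavy chain (Slc3a2) with light chains such as Slc7a7 and Slc7a8 pass them on across the basolateral membrane. Loss of these carriers causes aminoacidurias such as cystinuria and Hartnup disorder. Other members of the same families carry no proteinogenic amino acid at all, such as the creatine carrier Slc6a8, the taurine carrier Slc6a6, the betaine carrier Slc6a12, the serotonin carrier Slc6a4 and the purine nucleobase carrier Slc43a3. Slc7a6os, picked by its symbol, is a neighbour of Slc7a6 and not a carrier.

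Libraries held between 12662345 and 38651781 counted reads, and the 52 genes took 0.503% to 0.692% of them. Control mice 651 and 652 and EIC + S60 mouse 75 were sequenced to more than 1.5 times the median total. Every listed gene had a read in EIC mouse 65, whereas the other 19 libraries had 234 to 654 listed genes at 0. Control mouse 653 stood apart by fat cell markers and by several of the genes described here, and its values are given in full further on. Levels are CPM (read counts scaled to a common library size by TMM), and levels of different genes are compared only per kb of exon (CPM per kb).

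The brush border carriers led the order of levels. Slc3a1, the heavy chain of the cystine and dibasic amino acid exchanger, had 364 ± 45.1 CPM per kb over the 20 mice (mean ± SD). Slc6a18, a glycine and alanine carrier, followed with 203 ± 33.6 CPM per kb, and Slc6a19, the main neutral amino acid carrier that is deficient in Hartnup disorder, had 107 ± 23.2 CPM per kb. Between them stood a pair of light chains, Slc7a12 with 146 ± 35.2 CPM per kb and Slc7a7, the exit route of cationic amino acids, with 135 ± 23.0 CPM per kb. The spreads of Slc7a12 and Slc7a7 overlapped. Slc7a9, the light chain of Slc3a1, had 93.8 ± 13.8 CPM per kb and Slc3a2 78.3 ± 13.0 CPM per kb. The first 6 genes of this order took between 65.1% and 72.1% of the summed CPM per kb of all 52 in every mouse.

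In all, 5 of the 52 genes had a mean of at least 100 CPM per kb, 12 lay between 10 and 100, 15 between 1 and 10, and 20 were under 1 CPM per kb. The middle group held the creatine carrier Slc6a8 (69.8 ± 10.1 CPM per kb), the taurine carrier Slc6a6 (56.2 ± 7.61), the proline carrier homologue Slc6a20b (37.3 ± 4.40 CPM per kb) and the GABA and taurine carrier Slc6a13 (34.5 ± 4.61). The glutamine family was led by Slc38a10 with 32.0 ± 1.48 CPM per kb, before Slc38a3, which takes up glutamine for ammonia production, with 14.4 ± 2.73, and Slc38a2 with 5.47 ± 1.04. The SLC1 family outside the brush border was led by the neutral amino acid exchangers Slc1a5 (6.05 ± 1.16 CPM per kb) and Slc1a4 (4.40 ± 1.14). The CAT group of the SLC7 family, named for cationic amino acid transport, was low. Slc7a1 had 0.926 ± 0.398 CPM per kb, Slc7a4 0.820 ± 0.144 and Slc7a2 0.364 ± 0.0989. The other carriers of cationic amino acids, Slc3a1 with Slc7a9 and Slc7a7, were among the highest genes, as given above. Slc7a13, the second light chain that pairs with Slc3a1, had only 0.842 ± 0.366 CPM per kb in these female kidneys, far below Slc7a9. The cystine and glutamate exchanger Slc7a11 never exceeded 9 reads in a library.

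**Figure D1:**
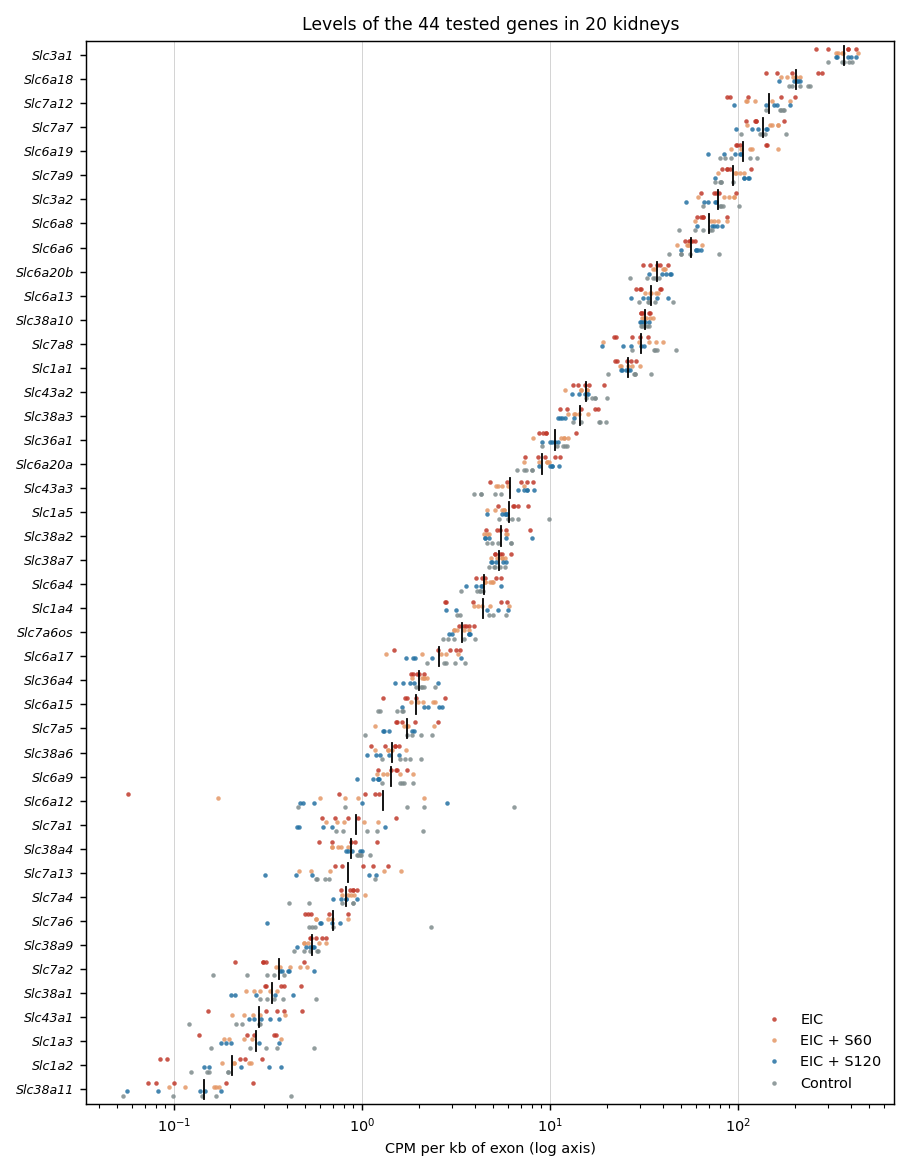
Levels of the 44 tested genes in CPM per kb of exon (x axis, log scale), 1 point per mouse, coloured by group, with the mean over the 20 mice as a black bar. The order runs from Slc3a1 at 364 CPM per kb to Slc38a11 at 0.145 CPM per kb, and the widest row is Slc6a12.

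The start regions of 36 of the 52 genes were in the RefSeq promoter table (GRCm38.p6), as 57 windows with 250 bases before and 50 after a start. They were searched on both strands for GTTAAT, the core bound by HNF1 factors that drive proximal tubule genes, and for TGATGNAA, the core of the element through which ATF4 induces amino acid genes. Shown are 4 windows: the most abundant member (Slc3a1), the basolateral light chain Slc7a7, Slc6a20a, whose level differed between groups, and Slc7a11, which was near 0. For Slc7a7 the window was picked because it held GTTAAT. Capitals mark the matches, written 5′ to 3′ on the strand of the gene.
Slc3a1, chr17:85028097-85028396, plus strand: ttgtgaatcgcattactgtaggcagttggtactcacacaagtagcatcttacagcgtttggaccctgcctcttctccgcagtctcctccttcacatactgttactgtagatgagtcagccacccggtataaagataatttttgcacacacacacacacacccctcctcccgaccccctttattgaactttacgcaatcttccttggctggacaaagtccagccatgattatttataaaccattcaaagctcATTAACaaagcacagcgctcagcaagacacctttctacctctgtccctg
Slc7a7, chr14:54409423-54409722, minus strand: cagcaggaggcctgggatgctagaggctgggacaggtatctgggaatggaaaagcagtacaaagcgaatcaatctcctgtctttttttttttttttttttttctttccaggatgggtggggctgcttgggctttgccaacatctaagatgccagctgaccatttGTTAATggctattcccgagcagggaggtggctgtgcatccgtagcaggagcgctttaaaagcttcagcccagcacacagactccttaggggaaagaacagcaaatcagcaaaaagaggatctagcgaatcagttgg
Slc6a20a, chr9:123678783-123679082, minus strand: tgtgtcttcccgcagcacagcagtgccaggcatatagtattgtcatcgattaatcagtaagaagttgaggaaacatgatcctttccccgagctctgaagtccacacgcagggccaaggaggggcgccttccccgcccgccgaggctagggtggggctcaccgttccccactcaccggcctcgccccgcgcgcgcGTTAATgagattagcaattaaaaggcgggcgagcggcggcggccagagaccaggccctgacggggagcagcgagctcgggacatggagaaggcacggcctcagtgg
Slc7a11, chr3:50443564-50443863, minus strand: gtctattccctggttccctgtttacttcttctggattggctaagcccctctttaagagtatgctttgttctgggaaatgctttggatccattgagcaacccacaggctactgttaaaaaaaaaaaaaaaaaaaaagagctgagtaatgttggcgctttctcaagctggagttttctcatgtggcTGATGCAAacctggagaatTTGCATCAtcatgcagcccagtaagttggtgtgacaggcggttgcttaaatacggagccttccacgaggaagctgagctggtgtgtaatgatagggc
GTTAAT began 86 bases before the start of the Slc7a7 window shown (-86) and 56 bases before that of Slc6a20a (-56), and in Slc3a1 it lay on the opposite strand, as ATTAAC, from base 2 of the transcript. Of the 5 windows of Slc7a7 only the one shown held GTTAAT, and among the other 4 there was TGATGNAA in 2, AGGTCA in 1 and no searched motif in 1. Slc7a11 held TGATGNAA in either orientation, at -66 and -47. GTTAAT was present in 6 of the 57 windows (10.5%) against 7.10% of 32851 RefSeq windows of the same length, and TGATGNAA in 4 (7.02%) against 3.97%. These 4 windows belonged to 3 genes, and the 2 of Slc7a7 overlapped and shared 1 match. GTTAAT was also in a window of Slc36a1, Slc6a13 and Slc7a15, but in none of Slc6a19, Slc7a9, Slc6a20b, Slc1a1, Slc3a2 or Slc7a8. HNF1 was added to the search after the Slc6a20a sequence had been seen. The E-box CACGTG (5 windows, 8.77%, against 7.15%), the D-box TTATGNAA (1 window, 1.75%, against 3.39%) and the ROR core AGGTCA (8 windows, 14.04%, against 16.3%) of the clock factors were searched in the same way, and none of the 5 motifs was in the 3 windows of Slc6a9. A match is a description of letters and not of a bound site.

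The comparison of EIC with Control kidneys asks what the immune complexes did to the carriers. Of the 44 genes 1 was called (edgeR quasi-likelihood test, Benjamini-Hochberg adjusted p under 0.05), Slc43a3, which was higher in EIC kidneys, and none was called lower. Over all 13990 genes 1.61% were called higher and 1.37% lower, so the 2.27% of the carriers that were called lay near the background. The LFC of the 44 genes had a median of -0.05 against -0.01 over all genes, and 20 were positive. Among the brush border carriers 0 of 9 were called, with LFCs between -0.15 and 0.45, and among the basolateral and heterodimeric exchangers, a class that here includes the SLC43 family, 1 of 9.

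No carrier was called for either dose of sparsentan against EIC kidneys. In EIC + S60 against EIC kidneys 0 of the 44 genes were called, as were 0% of all genes higher and 0% lower. Only Slc1a5 had an unadjusted p under 0.05 there, while 846 of all genes (6.05%) did. At the higher dose, EIC + S120 against EIC, 0 of the 44 were called again, beside 0.0357% of all genes called higher and 0.0214% lower, and 3 (6.82%) had an unadjusted p under 0.05 against 8.45% of all genes. These were the glycine carrier Slc6a9 (LFC -0.38, SE 0.13, adjusted p = 0.420), Slc38a3 (LFC -0.31, SE 0.12, adjusted p = 0.498) and Slc6a19 (LFC -0.36, SE 0.16, adjusted p = 0.571). DESeq2 and limma-voom called 0 of the 44 in these comparisons too. Over all 13990 genes DESeq2 called 5 at the lower dose and 65 at the higher, and limma-voom 0 and 4. The SE of the 44 LFCs had a median of 0.14, which limits the changes that could be detected, and these counts do not show that the carriers were alike.

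The doses were also compared with each other. In EIC + S120 against EIC + S60 kidneys 0 of the 44 were called by edgeR, beside 0.0357% of all genes higher and 0.0286% lower. DESeq2 and limma-voom also called 0 of the 44, beside 80 and 8 of all 13990 genes. With an unadjusted p under 0.05 in edgeR there were 4 genes (9.09%), against 8.08% of all genes. Slc43a3 showed an LFC of 0.35 (SE 0.12, adjusted p = 0.418) and Slc6a9 of -0.35 (SE 0.13, adjusted p = 0.448). The heavy chain Slc3a2 showed an LFC of -0.32 (SE 0.14, adjusted p = 0.525) and Slc6a19 of -0.38 (SE 0.16, adjusted p = 0.560).

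Both doses were also compared with Control kidneys, and the 3 comparisons with Control share the same Control mice. In EIC + S60 against Control kidneys 0 of 44 were called, beside 0.808% of all genes higher and 0.479% lower, and 9 (20.5%) had an unadjusted p under 0.05 against 12.7% of all genes. In EIC + S120 against Control kidneys 5 of 44 were called, 3 higher and 2 lower, beside 2.89% of all genes higher and 2.67% lower. The 5 genes were 11.4% of those tested. Higher were Slc43a3, Slc6a20a and Slc6a15, and lower were Slc38a3 and Slc6a9. The LFCs of the 44 genes had a median of -0.12 against -0.01 over all genes, and 13 of the 44 (29.5%) against 19.98% of all genes had an unadjusted p under 0.05. The difference between EIC + S120 and EIC kidneys was not called for any of these 5 genes. The mice of the 2 groups did not overlap for 3 of the 44 genes in EIC + S120 against Control. In EIC + S60 against Control, where 0 were called, this also held for 3 of 44, namely Slc6a15, Slc6a4 and Slc38a4. The share of all genes without overlap was not counted. A test for any difference among the 4 groups called 1 of 44, Slc43a3 (adjusted p = 0.0113), beside 3.55% of all genes.

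**Figure D2:**
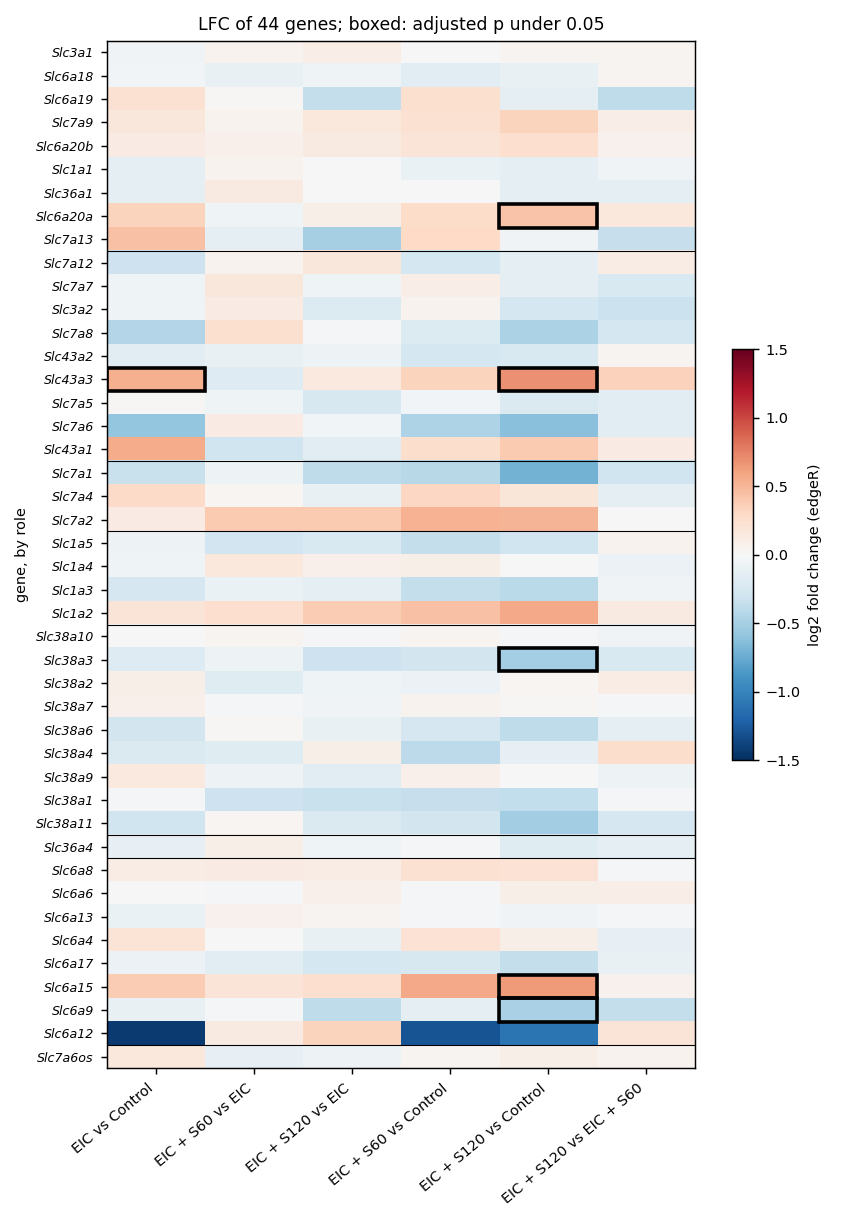
LFC (colour, log2 scale) of the 44 tested genes (rows, grouped by role from brush border carriers at the top to Slc7a6os at the bottom) in the 6 comparisons of 2 groups (columns). Boxes mark the 6 gene and comparison pairs with an adjusted p under 0.05, 1 in EIC against Control and 5 in EIC + S120 against Control.

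Slc43a3, the purine nucleobase carrier of the SLC43 family, was the gene with the clearest difference. It lies on chr2:84936579-84958509 on the plus strand. Its level was 26.5, 21.4, 33.7, 36.5 and 31.5 CPM in EIC mice and 32.4, 23.6, 26.8, 23.0 and 24.8 CPM in EIC + S60 mice. In EIC + S120 mice it was 33.7, 32.3, 36.6, 33.5 and 30.0 CPM, against 24.4, 19.1, 19.3, 22.9 and 17.6 CPM in Control mice. Every EIC + S120 mouse lay above every Control mouse, as did 4 of 5 EIC mice and 3 of 5 EIC + S60 mice. The LFC was 0.53 in EIC against Control (SE 0.12, adjusted p = 0.0236), 0.33 in EIC + S60 against Control (SE 0.12, adjusted p = 0.239) and 0.68 in EIC + S120 against Control (SE 0.12, adjusted p = 0.00187). The call in EIC + S120 against Control held without any of the 20 libraries, whereas that in EIC against Control was lost without Control 652, Control 655, EIC 67, EIC 68 or EIC 69, with adjusted p up to 0.0662. Its neighbour and paralogue on chromosome 2, the facilitated neutral amino acid carrier Slc43a1, had an LFC of 0.56 in EIC against Control (SE 0.26, adjusted p = 0.292). Slc43a1 was low, with 0.872 to 2.75 CPM in EIC mice and 0.684 to 1.63 CPM in Control mice, so the groups overlapped.

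Macrophage markers moved with EIC too. Of 15 macrophage and monocyte markers 9 were higher in EIC than in Control kidneys, led by the complement genes C1qb (LFC 1.49), C1qa (LFC 1.46) and C1qc (LFC 1.47) and by Adgre1 (LFC 1.73), with a median LFC of 1.21, and their summed level was 137 to 334 CPM in EIC mice and 105 to 132 CPM in Control mice. In EIC + S120 against Control kidneys, where Slc43a3 had its largest LFC, 0 of the 15 markers were called and their median LFC was 0.45, with sums of 116 to 164 CPM in EIC + S120 mice. None of the 7 endothelial markers was called in either comparison. Their part in the level of Slc43a3 was not tested.

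Slc6a20a, a proline carrier of the brush border whose start region is shown above, was higher in EIC + S120 than in Control kidneys. Its level was 46.1, 38.4, 35.4, 30.2 and 43.4 CPM in EIC mice and 29.8, 39.4, 35.8, 40.5 and 39.6 CPM in EIC + S60 mice. EIC + S120 mice had 35.8, 41.7, 40.8, 41.99 and 45.8 CPM, against 30.4, 32.7, 27.4, 32.8 and 29.9 CPM in Control mice. No EIC + S120 mouse overlapped with a Control mouse, and 4 of 5 mice of each of the other EIC groups lay above all Control mice. The LFC in EIC + S120 against Control was 0.43 (SE 0.10, adjusted p = 0.0147), and the call was lost only without EIC + S120 mouse 81 (adjusted p = 0.0512). In EIC against Control it was 0.34 (SE 0.10, adjusted p = 0.0747). The adjacent homologue Slc6a20b, with a higher level per kb, had an LFC of 0.26 in EIC + S120 against Control (SE 0.10, adjusted p = 0.134), and how reads shared by the 2 copies were counted is not given in the sources used here.

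Slc6a15, a carrier of branched-chain amino acids and proline known mainly from neurons, was low in these kidneys. It had 21.3, 13.5, 10.01, 13.2 and 15.0 CPM in EIC mice, 14.2, 18.5, 16.5, 18.9 and 15.4 CPM in EIC + S60 mice and 20.03, 12.7, 16.6, 17.5 and 20.7 CPM in EIC + S120 mice. Control mice had 9.65, 11.8, 9.46, 12.6 and 12.8 CPM. Slc6a15 had an LFC of 0.64 in EIC + S120 against Control (SE 0.16, adjusted p = 0.0242) with 4 of 5 mice above all Control mice. All 5 EIC + S60 mice lay above all Control mice as well, with an LFC of 0.57 (SE 0.16) that did not pass (adjusted p = 0.0978). The EIC + S120 call was lost without Control 651, Control 653, EIC + S120 80 or EIC + S120 81, with adjusted p up to 0.0777, and without the 3 deepest libraries (adjusted p = 0.127).

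Slc38a3, the glutamine carrier of the basolateral membrane that feeds renal ammonia production, was lower in EIC + S120 than in Control kidneys. Its level was 91.9, 64.7, 76.7, 59.9 and 95.3 CPM in EIC mice and 84.6, 75.1, 70.9, 65.9 and 71.5 CPM in EIC + S60 mice. EIC + S120 mice had 63.8, 58.5, 61.4, 59.6 and 70.7 CPM, against 97.7, 77.1, 70.1, 95.8 and 105 CPM in Control mice. The EIC + S120 mice were close together and 4 of 5 lay below all Control mice, while EIC mice spread over nearly the whole range. The LFC was -0.50 (SE 0.12, adjusted p = 0.0188), and it was lost without Control 655, EIC + S120 78 or EIC + S120 80, with adjusted p up to 0.0565, and without the 3 deepest libraries (adjusted p = 0.0666).

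Slc6a9, a glycine carrier with a low level in kidney, was also lower in EIC + S120 than in Control kidneys. Its level was 7.92, 6.28, 7.85, 7.31 and 8.94 CPM in EIC mice, 6.16, 6.70, 6.98, 9.58 and 8.21 CPM in EIC + S60 mice and 6.34, 5.89, 6.23, 6.24 and 4.82 CPM in EIC + S120 mice. Control mice had 8.57, 8.43, 9.58, 8.23 and 6.58 CPM. All 5 EIC + S120 mice lay below all Control mice, but the gap was narrow. The LFC was -0.49 (SE 0.13, adjusted p = 0.0294). The call was lost in 8 of 20 fits that left out 1 library, with adjusted p up to 0.10002. These fits left out Control 651, 652, 653 or 654, or EIC + S120 78, 79, 80 or 81. The call was also lost without the deepest libraries (adjusted p = 0.129).

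**Figure D3:**
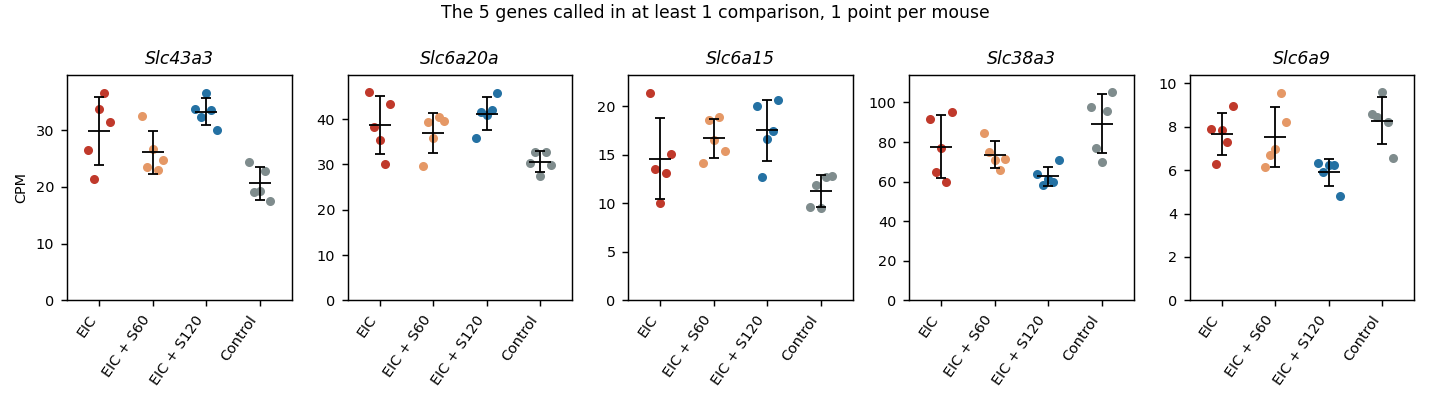
Level in CPM (y axis from 0) of the 5 genes called in at least 1 comparison, by group, 1 point per mouse with mean and SD in black. The EIC + S120 mean lies above the Control mean for Slc43a3 (33.2 ± 2.39 and 20.6 ± 2.86 CPM), Slc6a20a (41.2 ± 3.58 and 30.6 ± 2.25) and Slc6a15 (17.5 ± 3.18 and 11.3 ± 1.63), and below it for Slc38a3 (62.8 ± 4.84 and 89.2 ± 14.9) and Slc6a9 (5.91 ± 0.629 and 8.28 ± 1.08).

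For the main reabsorptive carriers no difference between groups passed the edgeR test. Slc3a1 averaged 798 ± 154 CPM in EIC, 830 ± 89.5 in EIC + S60, 852 ± 89.9 in EIC + S120 and 826 ± 90.6 in Control mice (SD, n = 5 each). Its light chain Slc7a9 averaged 249 ± 36.9 CPM in EIC, 258 ± 29.9 in EIC + S60, 277 ± 42.3 in EIC + S120 and 220 ± 18.5 in Control mice. Slc7a9 had an LFC of 0.33 in EIC + S120 against Control (SE 0.11, adjusted p = 0.0901), which passed in DESeq2 (0.33, adjusted p = 0.0432), without EIC + S120 mouse 77 (0.42, adjusted p = 0.00901) and without EIC mouse 66 (0.33, adjusted p = 0.0485). Slc6a19 averaged 585 ± 117 CPM in EIC, 594 ± 135 in EIC + S60, 456 ± 71.8 in EIC + S120 and 501 ± 101 in Control mice. Slc6a18 was the most scattered of them within EIC mice, at 1173, 623, 854, 715 and 1230 CPM, against 1066, 945, 827, 1040 and 860 CPM in Control mice. The basolateral light chain Slc7a7 averaged 435 ± 83.4 CPM in EIC, 488 ± 70.8 in EIC + S60, 416 ± 62.3 in EIC + S120 and 455 ± 90.3 in Control mice.

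The spread over all 20 mice differed much between genes. Slc38a10 was the steadiest, between 193 and 226 CPM with a coefficient of variation of 4.60%, followed by the lysosomal glutamine carrier Slc38a7 (7.30%) and the lysosomal arginine sensor Slc38a9 (10.5%). Slc3a1 had 12.4% and Slc6a19 21.7%. The betaine carrier Slc6a12, which medullary cells use against high tonicity, was the most variable with 108%, between 0.174 and 19.7 CPM. Its LFC of -1.43 in EIC against Control, the lowest of the 44, rested on group means of 2.60 ± 1.46 CPM in EIC and 7.08 ± 7.33 CPM in Control mice and was not called. Slc7a6 (57.3%) and Slc7a1 (43.0%) were among the other variable genes.

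Several of the variable genes were highest in Control mouse 653. Slc36a2, a proton-coupled glycine and proline carrier that is also known from brown fat, had 7.03 CPM there and at most 0.338 CPM in the other 19 mice. Slc7a6 had 10.6 CPM against at most 3.87 CPM, and Slc6a12 19.7 CPM against at most 8.65 CPM in the others. Slc7a1 had 24.3 CPM against at most 17.5 CPM. The same kidney had 14.5 CPM of Adipoq and 28.7 CPM of Plin1, markers of fat cells, against at most 1.27 and 1.62 CPM elsewhere. Ucp1 and Cidea, markers of brown fat that were chosen after their values had been seen, had 93.1 and 19.4 CPM there against at most 1.59 and 1.10 CPM. The summed level of the 7 adipocyte and adrenal markers listed was 303 CPM in Control 653, 32.5 to 54.1 CPM in the other Control mice and 25.3 to 78.1 CPM in the EIC, EIC + S60 and EIC + S120 mice. Aqp2, the water channel of the collecting duct, was also highest there with 1246 CPM against 187 to 482 CPM in the others. The summed level of 8 tonicity-regulated genes was 2983 CPM there, against 1025 to 1860 CPM in the others. Their part in the transporter levels was not tested, and without Control 653 the count of called genes in EIC + S120 against Control was 3 instead of 5, while 640 of 13942 genes in all were called.

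**Figure D4:**
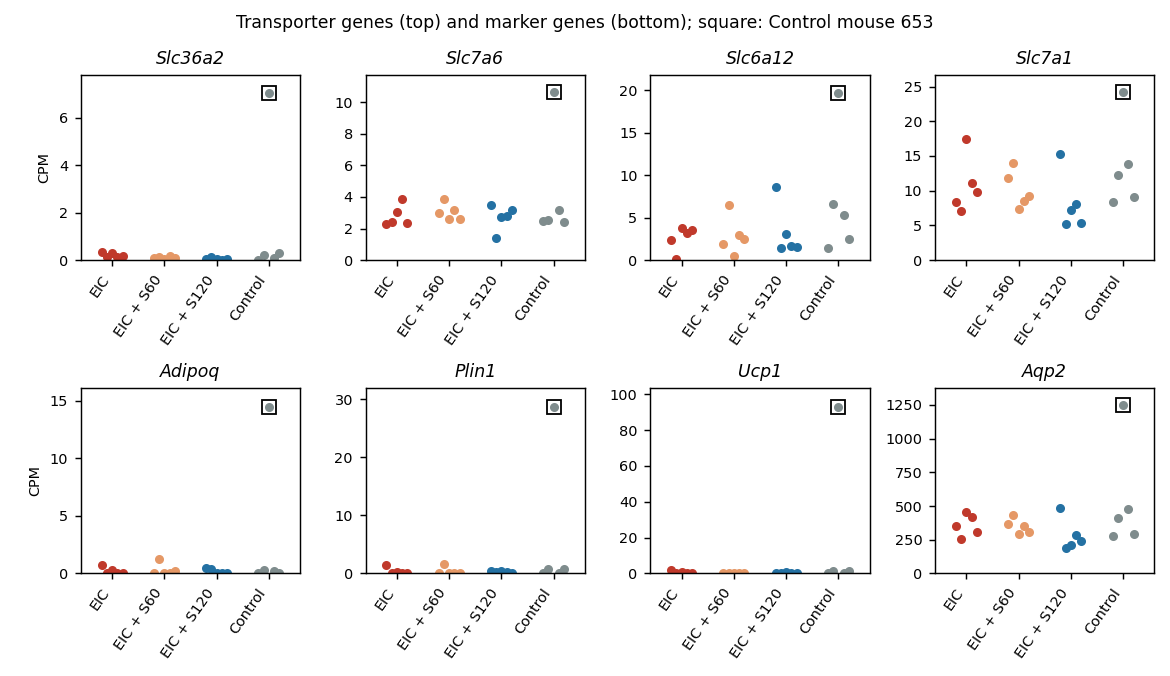
Level in CPM (y axes from 0) of 4 carrier genes (top) and of 3 fat cell markers and Aqp2 (bottom) by group, 1 point per mouse. Control mouse 653 (square) is the highest of the 20 in all 8 panels, from 7.03 CPM of Slc36a2 to 1246 CPM of Aqp2.

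EIC mouse 66, EIC + S60 mouse 72, EIC + S120 mouse 77 and Control mouse 653 lay at the end of their groups for several reabsorptive carriers. EIC 66 had the highest level of its group for Slc7a7 (579 CPM against 364 to 412), Slc7a9 (313 against 220 to 242), Slc3a2 (343 against 224 to 281), Slc7a8 (167 against 110 to 150) and Slc36a1 (77.8 against 49.3 to 53.8), and the lowest for Slc6a18 (623 against 715 to 1230) and Slc7a12 (152 against 157 to 352). EIC + S120 77 had the lowest level of its group for Slc7a7 (322 CPM against 393 to 473), Slc3a2 (186 against 233 to 271), Slc7a9 (203 against 286 to 305) and Slc6a19 (348 against 420 to 518), and the highest for Slc7a12 (329 against 166 to 282). EIC + S60 72 had the lowest level of its group for Slc7a7 (369 CPM against 488 to 544), Slc3a2 (216 against 298 to 338), Slc7a8 (95.9 against 150 to 200.2) and Slc7a9 (209 against 258 to 287). Control 653 was the lowest Control mouse for Slc7a7 (343 CPM against 433 to 594), Slc3a2 (229 against 282 to 355), Slc7a8 (138 against 178 to 234) and Slc7a9 (201 against 215 to 251). The summed level of 12 markers of the first proximal tubule segments was 20731 CPM in EIC 66, against 14667 to 15851 CPM in the other EIC mice, and 14276 CPM in EIC + S120 77, against 18805 to 19518 CPM in the other EIC + S120 mice. It was 14788 CPM in EIC + S60 72, against 17931 to 20037 CPM in the other EIC + S60 mice, and 12302 CPM in Control 653, against 15855 to 20072 CPM in the other Control mice. The light chains Slc7a7 and Slc7a9, Slc3a2 and the segment markers were high in EIC 66 and low in EIC + S60 72, EIC + S120 77 and Control 653. The part of tubule segment content in these carrier levels was not tested. Without EIC + S120 77 the EIC + S120 against Control comparison called 9 of the 44 genes, 5 higher and 4 lower, with Slc7a9 (LFC 0.42, adjusted p = 0.00901), Slc6a20b (0.31, 0.0433), Slc36a4 (-0.32, 0.0324) and Slc7a1 (-1.07, 0.0454) added. Over all genes the calls in that fit were 1172 of 13959, against 404 higher and 373 lower of 13990 with all 20 libraries.

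**Figure D5:**
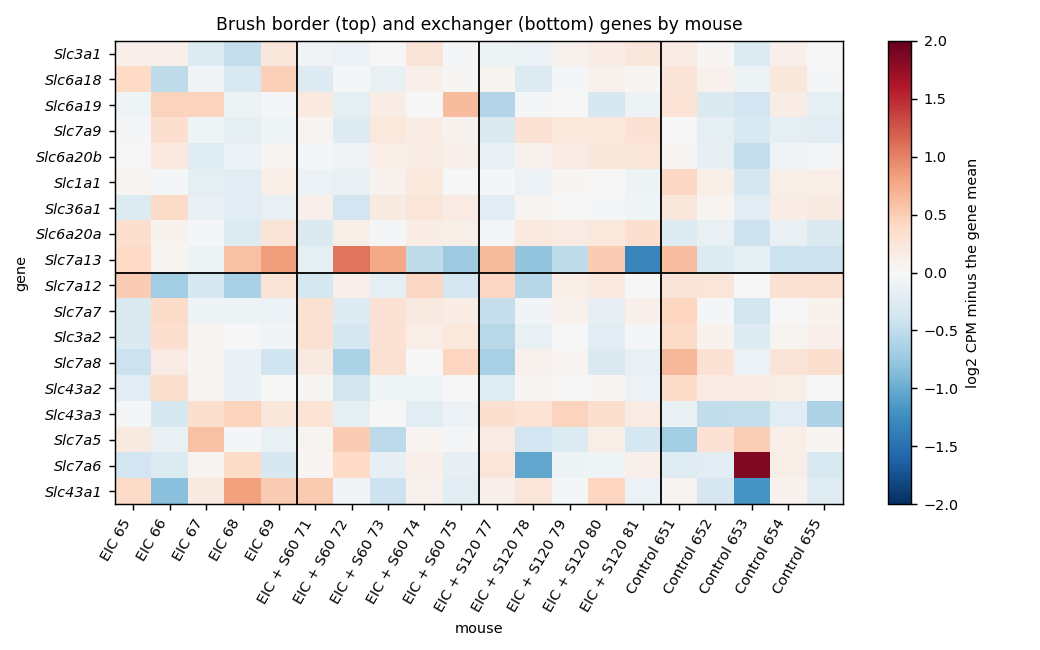
Log2 CPM minus the mean of the gene (colour) for 9 brush border and 9 exchanger genes (rows) in each mouse (columns, grouped as EIC, EIC + S60, EIC + S120 and Control). EIC 66 and EIC + S120 77 show opposite colours for Slc7a7, Slc3a2, Slc7a8 and Slc7a9, and Control 653 the darkest cell for Slc7a6.

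Genes that work with the carriers were read from lists. Of 14 partners and other carriers of amino acids or peptides, 0 were called in EIC against Control, 0 in either dose against EIC, and 1 in EIC + S120 against Control, the mitochondrial aspartate and glutamate carrier Slc25a13 (263 ± 28.6 CPM in EIC + S120 and 184 ± 23.3 CPM in Control, LFC 0.52, SE 0.11, adjusted p = 0.00538). Of 10 genes of glutamine use and ammonia production 1 was called higher and 1 lower in EIC against Control. Pck1, the first committed enzyme of gluconeogenesis, rose to 6196 ± 763 CPM in EIC kidneys, against 4159 ± 768 CPM in Control kidneys (LFC 0.58, SE 0.15, adjusted p = 0.0335). Pck1 was at 8703 ± 1768 CPM in EIC + S120 kidneys (LFC against Control 1.07, SE 0.15, adjusted p = 0.000114).

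Among 16 genes of amino acid sensing by mTORC1, the leucine sensor Sesn2 rose to 92.3 ± 10.1 CPM in EIC kidneys, against 58.9 ± 8.77 CPM in Control kidneys (LFC 0.65, SE 0.11, adjusted p = 0.00341). Sesn3, a related sestrin, fell to 62.8 ± 4.92 CPM in EIC kidneys, against 86.6 ± 15.7 CPM in Control kidneys (LFC -0.46, SE 0.10, adjusted p = 0.0191). Of these 16 genes, 1 was called higher and 0 lower in EIC + S60 against Control. In EIC + S120 against Control 1 was higher and 1 lower, and 0 were called for either dose against EIC. Of the 24 genes listed as ATF4 targets outside the transporters, which did not include Sesn2, 0 were called by edgeR in any of the 6 comparisons. Their median LFC was -0.03 in EIC against Control. Slc7a11, with its TGATGNAA pair, had at most 9 reads in any library and was too low to test. The part of ATF4 in these levels was not tested. Of 8 tonicity-regulated genes 0 were called in EIC against Control, with a median LFC of -0.30 against -0.01 over all genes. Of 12 markers of the first proximal tubule segments and 10 of the third, the dicarboxylate carrier Slc13a3 rose in EIC + S120 against Control (LFC 0.51, SE 0.12, adjusted p = 0.0107) and the fatty acid carrier Slc27a2 in EIC against Control (LFC 0.35, SE 0.09, adjusted p = 0.0412) and in EIC + S120 against Control (LFC 0.47, SE 0.09, adjusted p = 0.00291). Of 12 markers of the loop, distal tubule and collecting duct, 7 of podocytes, 7 of red blood cells and 5 of B cells, NK cells and neutrophils, 0 were called in these comparisons. Clock genes differed between EIC and Control kidneys, with 3 of 4 genes in phase with Arntl lower (Arntl, Npas2 and Clock) and 7 of 12 in antiphase higher, among them Per2 (LFC 1.27, SE 0.12) and Wee1 (LFC 0.77, SE 0.10). In EIC + S60 against Control 3 of 4 in phase were lower and 6 of 12 in antiphase higher. In EIC + S120 against Control 1 of 4 in phase was higher and 1 lower, and 6 of 12 in antiphase were higher and 1 lower. Dbp, also in antiphase, was lower in EIC + S120 than in EIC kidneys (LFC -0.68, SE 0.11, adjusted p = 0.0256). The part of these clock differences in the carrier levels was not tested.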

How the data were processed

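Whole kidney poly(A) libraries of 20 mice were analysed, 1 library per mouse, in 4 groups of 5. The raw counts per gene were made by the authors before they were deposited, with Trimmomatic 0.36, STAR 2.5.2b and featureCounts of Subread 1.5.2 on GRCm38, per the submitters' processing notes and the study's methods. For the annotation, the strand setting and multi-mapped reads, the choice made is not given in the sources used here. No column of per-sample values was left unmapped (0 columns).

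Counts were scaled by TMM and tested with the quasi-likelihood test of edgeR 4.0.16 (R 4.3.3) in 1 fit of the 4 groups, over the 13990 genes that passed the filter, with Benjamini-Hochberg adjustment over all of them and a threshold of 0.05. The SE of an LFC came from limma 3.58.1 fitted to log2 CPM (prior count 2). The steps were first tested on simulated data. Exon lengths and coordinates were from GENCODE vM21 and start regions from RefSeq. Alternatives were RLE scaling, no filter, DESeq2 1.42.0, limma-voom, leaving out the deepest libraries, fitting only the 10 libraries compared and leaving out each library in turn.

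The members and gene lists were chosen with earlier results of these data known. Named were every member called in 1 or more tests, the 3 members of each class with the highest CPM per kb, members too low to test, and up to 4 called genes of each list. Other genes, such as Slc7a6, Slc36a2, Slc38a7 and those called only under an alternative, were named after their values had been seen. Of the called list genes 1 is not reported here.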

Additional observations from a re-analysis of the deposited data

Results flagged for a closer look

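In each group of 5 mice, the highest and the lowest mouse were set against the other 4 by Dixon's test, for the 44 tested genes. Of their 176 groups 15 held a mouse that stood apart, where chance gives about 1 in 20, or 8.8 groups. Slc36a2, too low to test, was looked at in the same way with its Control 653 value known and is not counted there. No explanation for these values was tested.

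Control mouse 653 stood apart for 4 genes, with 19.7 CPM of Slc6a12, 10.6 CPM of Slc7a6, 7.03 CPM of Slc36a2 and 245 CPM of Slc7a12, the last being the lowest of its group. EIC mouse 66 was the highest of its group for 4 genes, with 579 CPM of Slc7a7, 313 CPM of Slc7a9, 454 CPM of Slc6a8 and 77.8 CPM of Slc36a1. EIC + S120 mouse 77 stood apart for 3 genes, high with 15.3 CPM of Slc7a1 and 8.65 CPM of Slc6a12 and low with 203 CPM of Slc7a9. EIC + S120 mouse 81 had 19.3 CPM of Slc1a5 and 420 CPM of Slc6a6. Single genes stood apart in EIC + S120 mouse 78 (5.06 CPM of Slc7a2), EIC + S60 mouse 72 (45.5 CPM of Slc36a1) and Control mouse 651 (2.51 CPM of Slc7a13).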

How the results depend on the processing

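No paired analysis was possible because the replicate numbers are mouse numbers that no 2 groups share. In EIC against Control, where 1 of 44 genes was called, DESeq2 called 2, and 0 were called without the 3 deepest libraries or with only the 10 libraries compared. Leaving out each library in turn gave 0 to 1. Over all genes the calls in these fits were 704 in DESeq2, 135 without the deepest libraries, 143 with the 10 libraries and 233 to 465 leaving out 1 library. In EIC + S60 against Control, where edgeR called 0, DESeq2 and the fit of only the 10 libraries each called 1 (Slc6a15), and leaving out each library gave 0 to 1, the 1 being without EIC 65, beside 359, 172 and 103 to 224 calls over all genes. In EIC + S120 against Control, where 5 were called, 2 were called without the deepest libraries, and leaving out each library gave 2 to 9: 3 without Control 651, Control 653 or EIC + S120 78, 2 without EIC + S120 80 or 81, and 9 without EIC + S120 77. Over all genes 544 of 13748 were called without the deepest libraries and 489 to 1172 leaving out 1 library, the most being without EIC + S120 77. The test among the 4 groups, with 1 called, gave 5 in DESeq2, 0 without the deepest libraries and 1 to 2 in the fits that left out a library, beside 1028, 199 and 303 to 726 calls over all genes. In either dose against EIC, and in EIC + S120 against EIC + S60, 0 were called under every alternative run. Over all genes the calls in these fits were 0 to 5 in EIC + S60 against EIC and 1 to 65 in EIC + S120 against EIC. They were 2 to 80 in EIC + S120 against EIC + S60. Signs were followed for 138 LFCs of 23 members, those called or among the 3 highest of their class. No LFC that was called, or had an unadjusted p under 0.05, changed sign under these alternatives. Of the remaining LFCs, 51 changed sign in at least 1 alternative. The cause of these differences was not tested. Depth limits genes with few reads, such as Slc6a12 with as few as 3 in a library.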
